A study of Mus musculus with 25 samples.

Results

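Methylation of histone H3 at lysine 4 and lysine 79 marks transcribed genes, and the enzymes that place both marks are central to blood stem cells and to leukemia with rearranged MLL. KMT2A (MLL1), KMT2B, KMT2C and KMT2D are large H3K4 methyltransferases. Each works in a complex built on the same core, which includes WDR5, ASH2L and RBBP5. Menin, encoded by *Men1*, and LEDGF, encoded by *Psip1*, join KMT2A and KMT2B to chromatin. DOT1L is the H3K79 methyltransferase, and it meets MLL fusion proteins through partners such as AF9 and AF10. The genes described here are these 10, *Kmt2a*, *Kmt2b*, *Kmt2c*, *Kmt2d*, *Men1*, *Psip1*, *Wdr5*, *Ash2l*, *Rbbp5* and *Dot1l*, which are picked out by name, of 23116 genes in the deposited table.

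RNA was measured in hematopoietic stem cells of adult C57BL/6 bone marrow that had been sorted as LSK+, CD150+ and CD48-. There were 3 libraries from mice with floxed *Znf143* and no Cre (*Znf143 f/f*) and 3 from littermates that also carried Rosa26ERT2-Cre, in which the first exon of *Znf143* is removed (*Znf143 -/-*). Both genotypes received tamoxifen for 10 days, and the study lists the mice with and without Cre alike as males of 8 to 12 weeks. Rosa26 is active in most cell types, so deletion was not restricted to blood cells, and an effect of active Cre cannot be told apart from the loss of ZNF143. ZNF143 is a zinc finger factor that binds mostly at promoters. The sample labels name the deleted gene as CTCF, but *Zfp143*, the symbol of *Znf143* in the table, fell from 3.74 ± 0.683 to 0.242 ± 0.076 rescaled FPKM (mean ± SD, n = 3 each) with a log2 fold change of -3.50, whereas *Ctcf* was at 31.2 ± 1.34 and 28.6 ± 2.87 (limma, adjusted p = 0.468).

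FPKM are fragments per kilobase of gene length, scaled to the depth of the library. Between 38643255 and 57895793 fragments per library fell on genes. The third *Znf143 -/-* library had been divided by 48378188, the divisor of the second, although 57895793 of its own fragments fell on genes. Levels below are therefore FPKM divided by a size factor of each library, called rescaled FPKM, and fold changes are differences of log2(rescaled FPKM + 0.1) with their standard error (SE). A gene was called when its limma p, adjusted by Benjamini-Hochberg over all 19296 tested genes, was under 0.05. On this basis 580 genes were higher and 577 lower in *Znf143 -/-* cells, against 529 higher and 304 lower with FPKM as deposited, which moved the median log2 fold change of all genes from 0.0075 to 0.11. Libraries are the replicates, and in bulk RNA fewer cells of a type and less RNA per cell cannot be told apart.

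All 10 genes passed the filter on low values. *Men1* and *Kmt2c* were called lower in *Znf143 -/-* cells, and none was called higher, where 2.99% of all tested genes were called lower and 3.01% higher. *Men1* fell to 44.2% and *Kmt2c* to 57.1% of the *Znf143 f/f* mean. *Dot1l* was at 65.7%, *Kmt2b* at 70.2% and *Kmt2a* at 75.4%, without passing the threshold. The other 5 genes, *Kmt2d*, *Psip1*, *Wdr5*, *Ash2l* and *Rbbp5*, had means between 92.5% and 118.3% of those in *Znf143 f/f* cells. Both calls depended on the scaling: with FPKM as deposited, 0 of the 10 genes were called, where 1.58% of all genes were called lower, and the adjusted p was 0.0641 for *Men1* and 0.0943 for *Kmt2c*, the 2 genes with an unadjusted p under 0.05 in the lower direction (6.09% of all genes). With each library scaled to its own fragments, *Kmt2c* was called and *Men1* was not (0.0511), where 2.35% of all genes were called lower. With the replicate number as a block, 0 of the 10 were called, where 0.549% of all genes were called lower, and 3 had an unadjusted p under 0.05 in the lower direction, as 8.76% of all genes did.

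**Figure D1:**
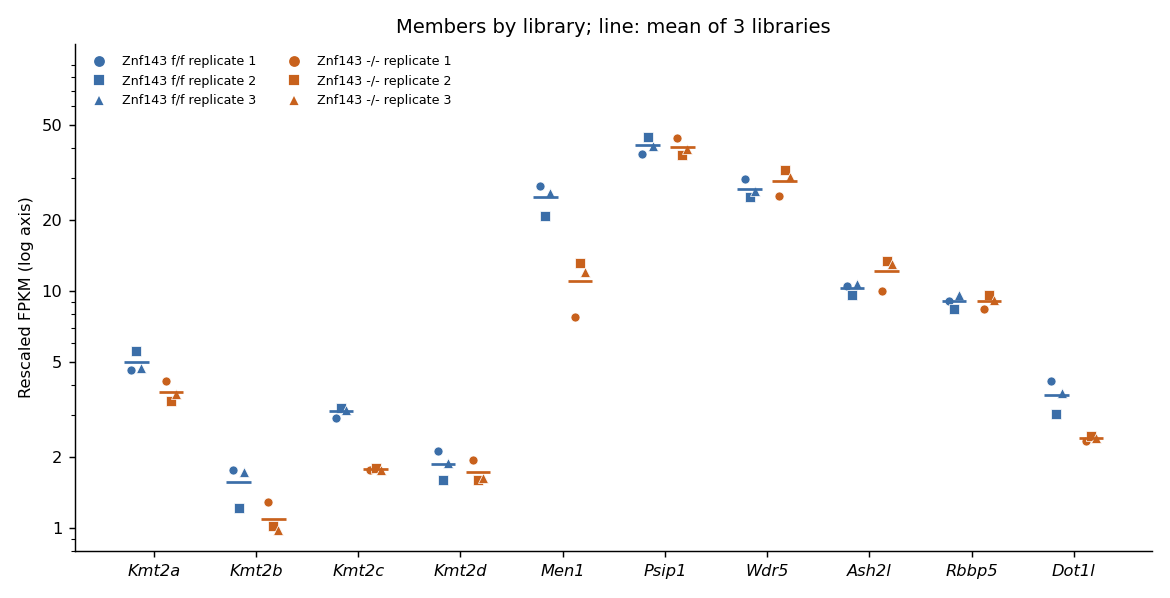
Rescaled FPKM (log axis) of the 10 genes in each of the 6 libraries, blue for *Znf143 f/f* and orange for *Znf143 -/-*, with a marker shape for each replicate number and a line at the mean of 3. *Men1*, *Kmt2c*, *Dot1l* and *Kmt2a* do not overlap between genotypes, while the other 6 genes do.

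Menin is a scaffold that binds the amino end of KMT2A and KMT2B and, with LEDGF, holds them on chromatin. *Men1* lies at chr19:6334979-6340891 on the plus strand (GRCm38, GENCODE vM21). Its rescaled FPKM were 27.7, 20.8 and 25.9 in *Znf143 f/f* cells, and 7.77, 13.1 and 12.1 in *Znf143 -/-* cells. Every *Znf143 -/-* library was below every *Znf143 f/f* library, and the first *Znf143 -/-* library was the lowest. The log2 fold change was -1.19 ± 0.21 (SE; limma, adjusted p = 0.0279), with between 1186 and 3935 fragments per library. Leaving out the first or the third *Znf143 f/f* library, or the second or the third *Znf143 -/-* library, ended the call, with adjusted p between 0.0537 and 0.112 and log2 fold changes between -1.33 and -1.12.

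The promoter of *Men1* is shown because *Men1* is on the study's list of genes with ZNF143 at the promoter, a list for which the study also used expression. Of the 10 genes, *Kmt2b* is the only other on it. The share of all genes on that list was not counted here, so these 2 are no result about the 10. The 250 bases before its RefSeq start, chr19:6334729-6334978 on the plus strand (GRCm38.p6), are printed 5′ to 3′, with capitals where ACTACA is followed, after any 3 bases, by TCCCA.
Men1: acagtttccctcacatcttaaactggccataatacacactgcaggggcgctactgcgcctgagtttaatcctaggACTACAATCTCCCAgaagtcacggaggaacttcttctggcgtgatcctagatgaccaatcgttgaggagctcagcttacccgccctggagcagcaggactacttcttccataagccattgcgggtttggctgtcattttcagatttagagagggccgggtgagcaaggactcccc
The match starts 175 bases before the start, at chr19:6334804-6334817. The letters were searched on both strands of the RefSeq promoter windows, which run from 250 bases before to 50 after a start, and 7 of 32851 windows (0.021%) held them, 3 of which are the overlapping windows of *Men1*. The shorter ACTACA, which lies inside that match, was in 10.335% of windows and, of the members with a window, only in those of *Men1*. Both sets of letters were added after the *Men1* window had been read. The letters usual for ZNF143 (ACTACA, any 2 bases and TCCCA, or CCCA, any 2 bases and ATGC) and for CTCF (CC, any 3 bases, AGG, any 1 base and GGC) were in 1.473%, 1.881% and 3.428% of windows and in none of the 7 members with a window (*Kmt2b*, *Psip1* and *Ash2l* were not matched to one). A match is a string of letters and not a measured site.

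LEDGF reads H3K36 methylation and is the other protein that ties KMT2A to chromatin through menin. *Psip1*, at chr4:83455680-83486459 on the minus strand, had the highest level of the 10 genes in both genotypes. It was at 37.9, 44.5 and 41.0 rescaled FPKM in *Znf143 f/f* and 44.1, 37.5 and 39.7 in *Znf143 -/-* cells. The genotypes overlapped, with a log2 fold change of -0.02 (95% confidence interval -0.26 to 0.21; limma, adjusted p = 0.913) whose sign turned with FPKM as deposited (0.09). Of its exonic bases, 9.5% are shared with *Snapc3* on the opposite strand, and since the library kit does not mark strand, fragments there could belong to either gene.

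The ratio of *Men1* to *Psip1* within a library does not depend on how libraries are scaled. It was 0.732, 0.467 and 0.632 in *Znf143 f/f* cells and 0.176, 0.348 and 0.304 in *Znf143 -/-* cells. All 3 *Znf143 -/-* ratios were lower, by 1.18 on the log2 scale on average (log2 means -0.74 ± 0.33 and -1.92 ± 0.52, SD, n = 3; two-sided exact permutation test, p = 0.1, 0.2 after adjustment over the 4 ratios tested). A p of 0.1 is the smallest that 3 against 3 libraries allow.

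KMT2C (MLL3) and KMT2D (MLL4) are paralogs whose complexes place H3K4 monomethylation at enhancers. *Kmt2c* lies at chr5:25271798-25498783 on the minus strand. Its rescaled FPKM were 2.92, 3.22 and 3.16 in *Znf143 f/f* cells and 1.76, 1.80 and 1.75 in *Znf143 -/-* cells. The genotypes did not overlap, and the 3 *Znf143 -/-* libraries lay closer together than those of any other gene of the 10 in either genotype (SD 0.0244). The log2 fold change was -0.77 ± 0.11 (SE; limma, adjusted p = 0.0149), with between 1572 and 3202 fragments per library. Leaving out any 1 of the same 4 libraries as for *Men1* ended this call too, with adjusted p between 0.0614 and 0.097.

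*Kmt2d*, at chr15:98831669-98871204 on the minus strand, was at 2.10, 1.60 and 1.87 rescaled FPKM in *Znf143 f/f* and 1.93, 1.60 and 1.63 in *Znf143 -/-* cells. These ranges overlapped almost fully, with a log2 fold change of -0.10 (95% confidence interval -0.48 to 0.28; limma, adjusted p = 0.741) that was 0.0038 with FPKM as deposited. The ratio of *Kmt2c* to *Kmt2d* was 1.39, 2.02 and 1.69 in *Znf143 f/f* cells and 0.911, 1.13 and 1.08 in *Znf143 -/-* cells. Without overlap, it fell by 0.70 on the log2 scale (log2 means 0.75 ± 0.27 and 0.05 ± 0.16, SD, n = 3; two-sided exact permutation test, p = 0.1, adjusted 0.2).

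The promoter windows of *Kmt2c* and *Dot1l* are shown beside that of *Men1* because *Kmt2c* was called and *Dot1l* was near the threshold. G and C made up 88.0% of the window of *Kmt2c* and 76.3% of that of *Dot1l*, against 75.7% for *Kmt2a*, 53.3% to 58.0% for the 3 windows of *Men1*, 44.0% to 62.7% for *Kmt2d*, *Wdr5* and *Rbbp5*, and a median of 52.7% over all windows. CpG pairs numbered 56 in the window of *Kmt2c*, 49 in that of *Dot1l*, 36 in that of *Kmt2a* and 11 to 16 in those of *Men1*, with a median of 7. The 250 bases before each RefSeq start, chr5:25498784-25499033 on the minus strand and chr10:80754953-80755202 on the plus strand (GRCm38.p6), read 5′ to 3′ as follows, with no capitals since no searched letters matched.
Kmt2c: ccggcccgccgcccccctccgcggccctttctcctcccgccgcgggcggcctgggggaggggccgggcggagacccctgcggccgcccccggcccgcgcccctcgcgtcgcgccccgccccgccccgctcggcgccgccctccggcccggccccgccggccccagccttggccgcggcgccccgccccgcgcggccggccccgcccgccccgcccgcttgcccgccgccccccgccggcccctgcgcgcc
Dot1l: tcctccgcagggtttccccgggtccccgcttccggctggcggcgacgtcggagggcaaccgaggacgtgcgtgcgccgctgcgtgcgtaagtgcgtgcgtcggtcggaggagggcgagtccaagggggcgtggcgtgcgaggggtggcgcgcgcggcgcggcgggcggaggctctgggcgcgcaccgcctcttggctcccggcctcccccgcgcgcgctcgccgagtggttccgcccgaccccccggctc

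KMT2A is the enzyme that is split by MLL translocations, and it maintains Hox gene expression in blood stem cells. *Kmt2a*, at chr9:44803355-44881296 on the minus strand, was at 4.64, 5.57 and 4.75 rescaled FPKM in *Znf143 f/f* and 4.18, 3.42 and 3.68 in *Znf143 -/-* cells. Its libraries did not overlap between genotypes, but the log2 fold change of -0.40 ± 0.13 (SE) did not pass the threshold (limma, adjusted p = 0.12). KMT2B is its closest paralog. *Kmt2b*, at chr7:30568858-30588726 on the minus strand, had the lowest level of the 10 genes, at 1.75, 1.21 and 1.71 in *Znf143 f/f* and 1.29, 1.02 and 0.976 in *Znf143 -/-* cells. The second *Znf143 f/f* library was below the first *Znf143 -/-* library, and the log2 fold change was -0.47 ± 0.20 (SE; limma, adjusted p = 0.221). The ratio of *Kmt2b* to *Kmt2a* overlapped between genotypes (log2 means -1.70 ± 0.44 and -1.79 ± 0.11, SD, n = 3; two-sided exact permutation test, p = 0.9, adjusted 0.9).

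Taking the FPKM of the 4 KMT2 enzymes together, *Kmt2c* made up 25.6%, 27.8% and 27.5% in *Znf143 f/f* cells and 19.2%, 22.9% and 21.8% in *Znf143 -/-* cells. *Kmt2d* made up 18.4%, 13.8% and 16.3%, and then 21.1%, 20.4% and 20.2%. Neither share overlapped between genotypes, one being lower and the other higher in *Znf143 -/-* cells, while those of *Kmt2a* and *Kmt2b* did overlap. The summed rescaled FPKM of the 4 genes was 11.4, 11.6 and 11.5 in *Znf143 f/f* cells and 9.15, 7.83 and 8.03 in *Znf143 -/-* cells. Shares of 1 sum are tied to each other. *Kmt2d* itself was at 92.5% of its *Znf143 f/f* mean, so its larger share is part of a smaller sum and not a rise of the gene.

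**Figure D2:**
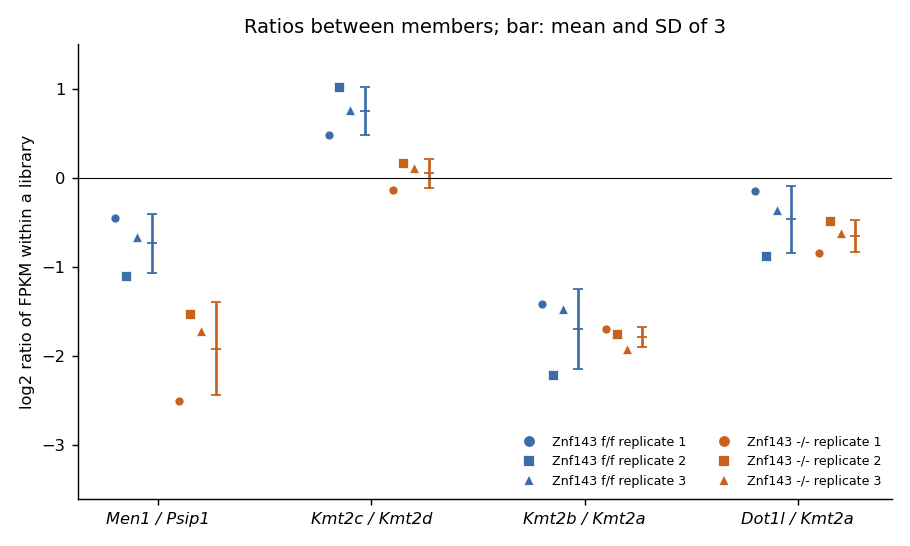
log2 ratio of FPKM between a pair of genes within each library, with the mean and SD of 3 libraries beside the points. *Men1* to *Psip1* and *Kmt2c* to *Kmt2d* are lower in every *Znf143 -/-* library than in any *Znf143 f/f* library, and the other ratios overlap.

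DOT1L methylates H3K79 in the body of transcribed genes and is required by leukemias with MLL fusions. *Dot1l* lies at chr10:80755206-80795461 on the plus strand. Its rescaled FPKM were 4.18, 3.03 and 3.71 in *Znf143 f/f* cells and 2.32, 2.45 and 2.39 in *Znf143 -/-* cells. The genotypes did not overlap, but the spread of the *Znf143 f/f* libraries was wide and the log2 fold change of -0.58 ± 0.14 (SE) missed the threshold (limma, adjusted p = 0.0677). It passed without the second *Znf143 f/f* library (adjusted p = 0.0205) and with limma's voom on recovered fragments (0.0444), under which 3.86% of all genes were called lower. The ratio of *Dot1l* to *Kmt2a* overlapped (log2 means -0.46 ± 0.37 and -0.65 ± 0.18, SD, n = 3; two-sided exact permutation test, p = 0.5, adjusted 0.667).

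WDR5, ASH2L and RBBP5 form the core that every KMT2 enzyme needs for full activity. None of their genes was called, and the genotypes overlapped for all 3. *Wdr5*, at chr2:27515157-27536535 on the plus strand, was at 29.7, 24.9 and 26.5 rescaled FPKM and then at 25.2, 32.3 and 30.1. Its log2 fold change was 0.11 (95% confidence interval -0.18 to 0.40; limma, adjusted p = 0.631). *Wdr5* has a close paralog in the table, *Wdr5b*, between which fragments could be split. *Ash2l*, at chr8:25815996-25847694 on the minus strand, was at 10.5, 9.61 and 10.7 and then at 9.98, 13.4 and 13.0. The first *Znf143 -/-* library was within the *Znf143 f/f* range and the other two were above it. The log2 fold change of 0.23 (95% confidence interval -0.09 to 0.54; limma, adjusted p = 0.343) passed the threshold only when that first library was left out (0.0457). Without that library 1157 of 19265 tested genes were called higher, against 580 of 19296 with all libraries. *Rbbp5*, at chr1:132477365-132505659 on the plus strand, was at 9.11, 8.42 and 9.65 and then at 8.40, 9.64 and 9.12, with a log2 fold change of -0.0007 (95% confidence interval -0.24 to 0.23; limma, adjusted p = 0.997).

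**Figure D3:**
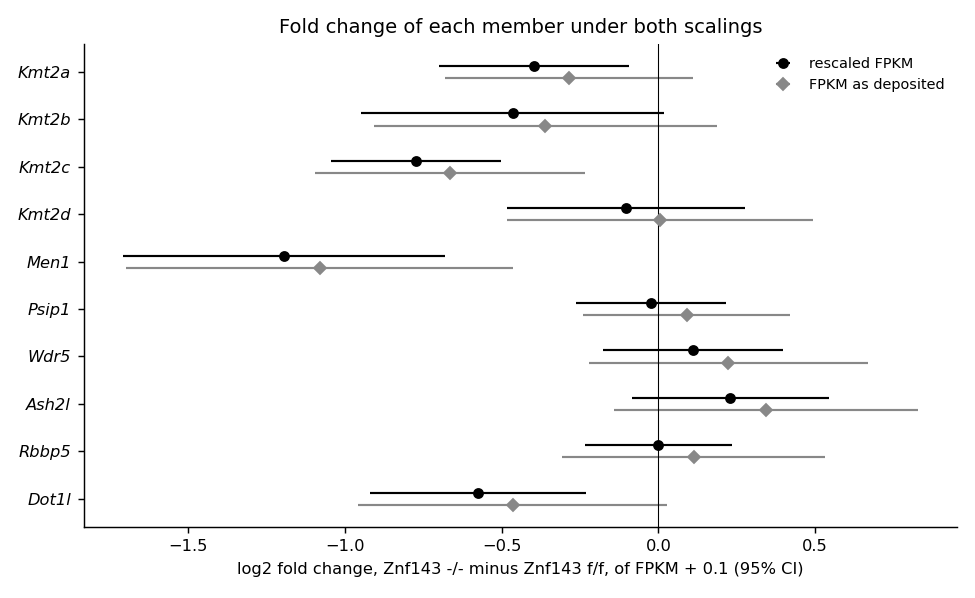
log2 fold change of each gene, *Znf143 -/-* minus *Znf143 f/f*, with its 95% confidence interval from limma, for rescaled FPKM (black) and FPKM as deposited (grey). Each value with FPKM as deposited lies about 0.11 to the right of the rescaled value, and *Kmt2d*, *Psip1* and *Rbbp5* cross 0.

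Of the 10 genes, 4 did not overlap between genotypes and were lower in *Znf143 -/-* cells, where 15.3% of all tested genes did so. An unadjusted p under 0.05 was reached in the lower direction by the same 4, where 11.8% of all tested genes reached it. The median log2 fold change of the 10 genes was -0.25 beside 0.0075 for all tested genes, and with FPKM as deposited -0.14 beside 0.11. Fold changes were below 0 for 8 of the 10 genes with rescaled FPKM (49.2% of all tested genes), for 6 when libraries were scaled to their own fragments (46.3%) and for 5 with FPKM as deposited (38.0%). The KMT2 genes have long transcripts. Among the 2009 tested genes with a listed length of at least 8000 bases, which include *Ash2l* and *Dot1l* as well as the 4 KMT2 enzymes, the median log2 fold change was -0.11, and it was 0.02 among the 17287 shorter genes, with 63.9% and 47.5% of values below 0. Of the long genes 2.24% were called lower, and of the shorter ones 3.08%. The part of length in the fold changes of *Kmt2a*, *Kmt2b*, *Kmt2c* and *Dot1l* was not tested.

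Levels per length ordered the genes in a similar way in both genotypes, except for *Men1*. In *Znf143 f/f* cells *Psip1* (41.1 ± 3.28, SD, n = 3) was followed by *Wdr5* (24.9 to 29.7) and *Men1* (24.8 ± 3.60), whose libraries overlapped, then by *Ash2l* (10.3 ± 0.565) and *Rbbp5* (9.06 ± 0.616), which also overlapped. *Kmt2a* (4.99 ± 0.509) stood apart from both neighbours. *Dot1l* (3.64 ± 0.577) and *Kmt2c* (3.10 ± 0.157) overlapped, as did *Kmt2d* (1.86 ± 0.254) and *Kmt2b* (1.56 ± 0.302). In *Znf143 -/-* cells *Men1* (10.96 ± 2.81) came after *Ash2l* (12.1 ± 1.87), and its libraries overlapped those of *Ash2l* and *Rbbp5* (9.05 ± 0.623). *Kmt2c* (1.77 ± 0.0244) then overlapped *Kmt2d* (1.72 ± 0.184).

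Likeness of pattern was taken as the root mean square difference of log2 values centred on their own mean over the 6 libraries. Among the 10 genes, *Wdr5* and *Ash2l* were the nearest to each other (0.0895), and *Kmt2b* and *Dot1l* were likewise each other's nearest (0.154). The nearest of the 10 to *Men1* was *Kmt2c*, at a distance of 0.347. The nearest of the 10 to *Kmt2c* was *Dot1l* (0.197), to *Rbbp5* it was *Wdr5* (0.103), to *Kmt2a* it was *Psip1* (0.19), and to both *Psip1* (0.167) and *Kmt2d* (0.17) it was *Rbbp5*. Among all tested genes whose mean FPKM was 1 or more, those nearest to *Kmt2c* included *Gm16150* (0.0394) and *Npl* (0.0453). Those nearest to *Men1* were *Lztr1* (0.0924), *Gab1* (0.111) and *Asb13* (0.115). These are descriptions over the same 6 libraries, 3 of each genotype.

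The partners of the KMT2 and SET1 complexes were described from a list of 15 genes, 14 of them tested. *Bod1*, whose product is named for chromosome biorientation and whose relative BOD1L works with SETD1A, was called lower. It fell from 41.4, 38.1 and 40.4 to 20.2, 28.3 and 24.7 rescaled FPKM (log2 fold change -0.72 ± 0.13, SE; limma, adjusted p = 0.0287). No partner was called higher, and the other 13 were not called. Without the second *Znf143 f/f* library 3 partners were called lower, with *Hcfc1* and *Wdr82* beside *Bod1*, where 5.79% of all genes were called lower. The median log2 fold change was -0.27, beside 0.0075 for all tested genes. Of the 14 values, 12 were below 0 (49.2% of all tested genes), or 8 with FPKM as deposited (38.0%), under which *Bod1* was not called (0.139).

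Among 15 partners of DOT1L and the super elongation complex, 14 were tested, 2 were called lower and none higher. *Aff3*, a gene of the AF4 family of elongation scaffolds, fell from 10.4, 9.38 and 10.5 to 5.79, 6.23 and 5.92 rescaled FPKM (log2 fold change -0.74 ± 0.09, SE; limma, adjusted p = 0.00813). *Mllt10*, which encodes the DOT1L partner AF10, fell from 13.3, 14.7 and 13.5 to 10.7, 10.2 and 10.2 (-0.42 ± 0.08, SE; adjusted p = 0.0371). Neither overlapped between genotypes, and 15.3% of all tested genes were likewise lower without overlap. With FPKM as deposited neither was called (0.0906 and 0.329), and the median of the list was -0.01 in place of -0.13. None of the 7 H3K4 demethylase genes was called in either direction by limma or by voom. With limma, 3 had an unadjusted p under 0.05 in the lower direction, where 11.8% of all tested genes did, and with voom 3 also. That unadjusted count was 0 with FPKM as deposited, with own fragments and with the replicate block, and 1 without the second *Znf143 f/f* library. Their median was -0.22, and all 7 values were below 0 (49.2% of all tested genes), or 6 of 7 with FPKM as deposited (38.0%).

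Of 20 genes known to depend on MLL, menin or DOT1L, 19 were tested, 1 was called lower and 2 higher, with a median of -0.13 (-0.02 with FPKM as deposited). *Mecom*, a stem cell transcription factor gene, fell from 9.06, 9.28 and 9.38 to 6.79, 6.04 and 6.08 rescaled FPKM (log2 fold change -0.55 ± 0.09, SE; limma, adjusted p = 0.0208). *Flt3*, a cytokine receptor gene of multipotent progenitors, rose from 5.42, 4.99 and 5.17 to 16.1, 15.6 and 15.9 (1.59 ± 0.08, SE; adjusted p = 0.000416). *Cdk6*, a cell cycle kinase gene, rose from 10.6, 8.06 and 10.2 to 17.4, 14.1 and 14.2 (0.66 ± 0.14, SE; adjusted p = 0.0459). With FPKM as deposited *Flt3* alone was called (0.00105), while *Cdk6* was at 0.0533 and *Mecom* at 0.182. Of the 6 called partner and target genes, *Flt3* kept its call without each library in turn (adjusted p at most 0.00753). The other 5 lost theirs without the third *Znf143 f/f* or the third *Znf143 -/-* library, *Bod1*, *Mllt10*, *Mecom* and *Cdk6* also without the first *Znf143 f/f* library, and *Mllt10*, *Mecom* and *Cdk6* also without the second *Znf143 -/-* library, with adjusted p between 0.0576 and 0.191, and *Cdk6* also without the first *Znf143 -/-* library (0.0573). With the replicate number as a block *Flt3* alone was called (0.0183), and the other 5 were at 0.0784 to 0.17. With own fragments *Bod1*, *Mllt10* and *Cdk6* were not called (0.0539 to 0.0674). When the second *Znf143 f/f* library was left out, *Eya1* was called lower as well, where 5.79% of all genes were called lower. None of the 5 *Hoxa* genes on the list was called, and neither was *Meis1*. *Hoxa5* (75.5% of the *Znf143 f/f* mean), *Hoxa9* (82.9%), *Hoxa10* (83.9%) and *Meis1* (91.0%) were lower without overlap, as were 15.3% of all tested genes. *Hoxa6* (92.5%) and *Hoxa7* (113.6%) overlapped. An unadjusted p under 0.05 was reached by 6 of the 19 in the lower direction (11.8% of all tested genes) and by 2 in the higher. With FPKM as deposited 2 were lower (6.09%) and 2 higher.

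**Figure D4:**
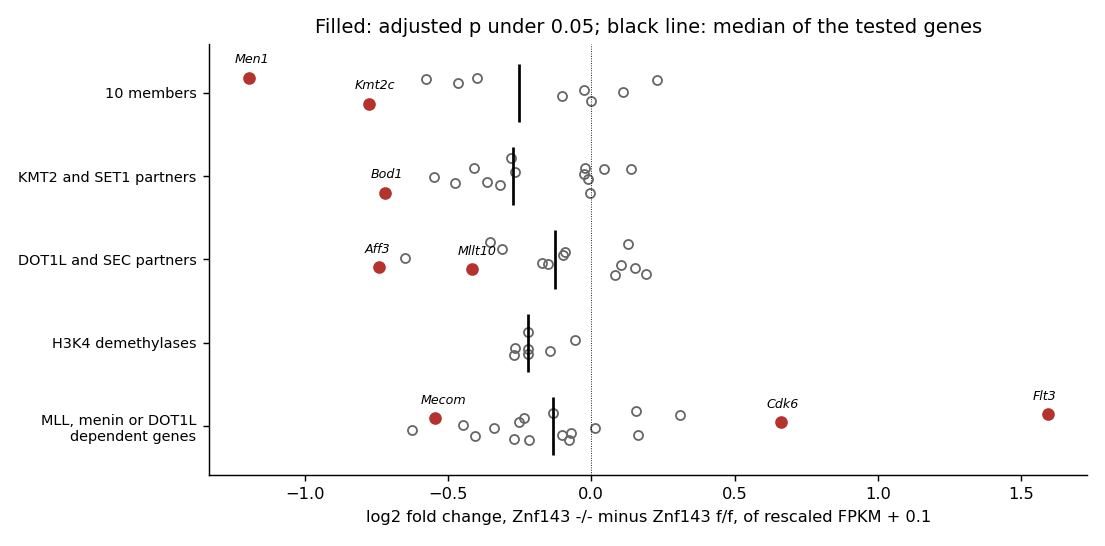
log2 fold change of each tested gene, *Znf143 -/-* minus *Znf143 f/f*, of rescaled FPKM + 0.1, for the 10 genes and the 4 other lists, with filled points for an adjusted p under 0.05 and a black line at each median. The medians lie between -0.27 and -0.13, and *Flt3* and *Cdk6* are the filled points above 0.

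Markers of other cells differed between the genotypes, and their part in the values above was not tested. Of 8 myeloid markers, 7 were tested and *Elane*, *Ctsg* and *S100a8* were called higher in *Znf143 -/-* cells. *Elane* and *Ctsg* were at most 0.809 and 0.286 rescaled FPKM in *Znf143 f/f* libraries. The other 4 tested markers, *Mpo*, *Prtn3*, *S100a9* and *Ltf*, were not called. The summed level of the list was 199 to 267 rescaled FPKM in *Znf143 f/f* and 261 to 420 in *Znf143 -/-* libraries. Most of it was *Prtn3*, at 227, 122 and 213 and then at 279, 141 and 159 (limma, adjusted p = 0.97). *Ly6g* was at 0 in 2 *Znf143 f/f* libraries and at most 0.217 elsewhere. Megakaryocyte and platelet markers summed to 538 to 617 and 666 to 1006, with *Itgb3* called higher of 6. *Pf4*, which was not called, made up most of these sums (391 to 479 and 501 to 824). Of the lymphoid markers in the table, 2 of 7 were tested, and *Dntt* was called higher. *Il7r* and *Cd3g* were at 0 in all 3 *Znf143 f/f* libraries and at most 0.044 and 0.053 rescaled FPKM in *Znf143 -/-* libraries. The lymphoid sums were 40.1 to 48.8 and 47.0 to 53.4, most of which was *Cd79b* (39.8 to 48.6 and 39.1 to 46.2), which was not called. Of 6 genes listed for mature cells or other gates, *Cd48* and *Flt3* were called higher. *Fcgr3* was at 0 in all *Znf143 f/f* libraries and at most 0.235 in *Znf143 -/-* libraries. The sums of these 6 genes were 55.0 to 55.5 and 72.5 to 75.5. These include *Cd34* (means 30.3 and 30.5), the largest part, and *Ptprc* (9.44 and 7.81), neither of which was called. The 8 markers of the stem cell gate were all detected, with *Ly6a* called higher and *Mecom* lower (sums 476 to 532 and 755 to 803).

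The second *Znf143 f/f* library stood apart from the others in the summed level of the erythroid markers, of which *Hbb-bt* alone was called (lower) among 8. The list summed to 243 rescaled FPKM in it and to 71.8 and 80.7 in the other *Znf143 f/f* libraries, and to between 66.5 and 71.6 in *Znf143 -/-* cells. *Car1* was at 142 in it, and at 15.1 and 21.9 in the other *Znf143 f/f* libraries. The same library had the lowest *Znf143 f/f* values of *Men1*, *Kmt2b*, *Kmt2d*, *Wdr5*, *Ash2l*, *Rbbp5* and *Dot1l* and the highest of *Kmt2a*, *Kmt2c* and *Psip1*. Without it, *Men1* (adjusted p = 0.0302), *Kmt2c* (0.0173) and *Dot1l* (0.0205) were called lower by limma, where 5.79% of all genes were, and *Kmt2b* was at 0.0673. Without it and with FPKM as deposited *Men1* alone was called (2.85% of all genes lower), and without it and with own fragments *Men1*, *Kmt2c* and *Dot1l* were (4.86%).

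**Figure D5:**
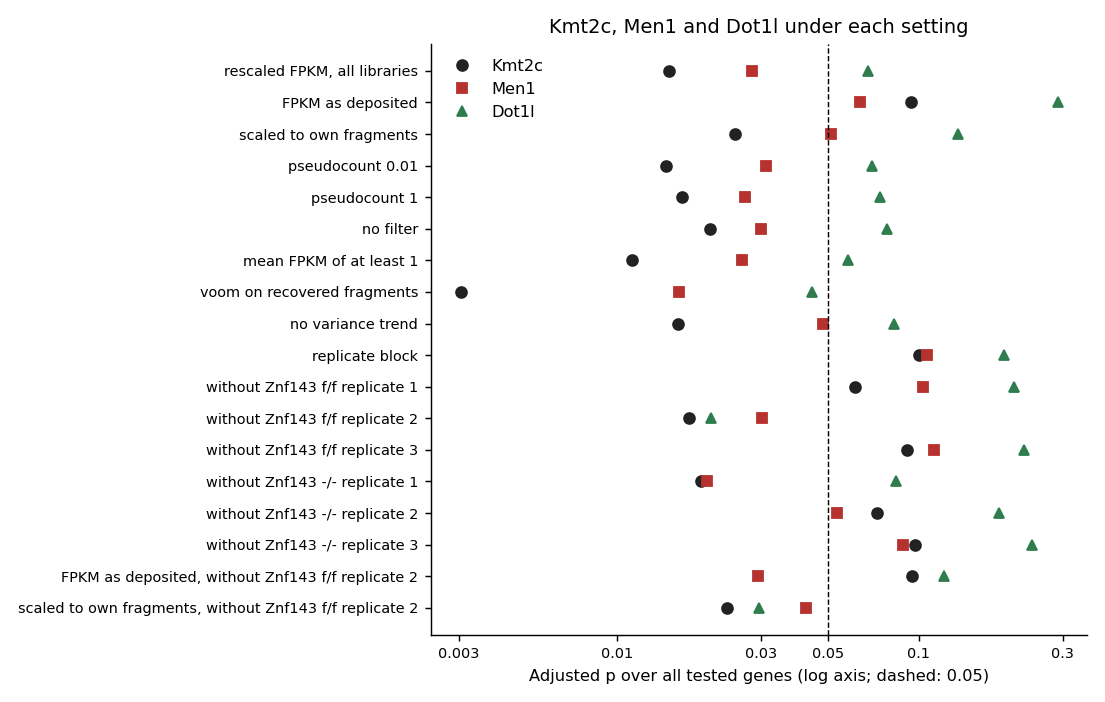
Adjusted p over all tested genes (log axis) of *Kmt2c*, *Men1* and *Dot1l* under each setting of the analysis, with a dashed line at 0.05. *Kmt2c* and *Men1* are left of the line with rescaled FPKM and all libraries, and right of it with FPKM as deposited, with the replicate block and without any 1 of 4 libraries. *Men1* is also right of it with scaling to own fragments, and *Kmt2c* with FPKM as deposited without the second *Znf143 f/f* library.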

How the data were processed

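RNA-seq of 3 *Znf143 f/f* and 3 *Znf143 -/-* libraries was analysed. The ChIP-seq and HiC samples were not used here. Groups and replicate numbers came from the sample titles. Reads had been trimmed (TrimGalore), mapped to GRCm38 (STAR) and assigned to genes (FeatureCounts) by the authors. The authors deposited FPKM of each library, the listed gene length, and columns of their own DESeq2 comparison (fold changes, p-values), which were not used. The annotation they used is not given in the sources used here.

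Multiplying FPKM by length and by the divisor of the library, which was estimated from the step between low values, gave whole fragments (within 0.05) for 99.986% of 138696 values. FPKM were divided by median-of-ratios size factors from 19046 genes. Genes whose mean FPKM reached 0.1 were fitted on log2(rescaled FPKM + 0.1) with limma 3.58.1 in R 4.3.3 (eBayes with a variance trend, no block) and adjusted by Benjamini-Hochberg. Adding 0.1 understates the change of low genes. The fit was tested on simulated data, in which it missed part of the genes changed 2-fold, so that a gene not called may still differ, and the recall asked of the test was lowered after its first run. Ratios were compared by two-sided exact permutation tests. Python 3.11.15, numpy 2.4.6 and pandas 2.3.3 were used. Fragment counts limit the precision of low genes and cover counting error only. The study describes 3 pairs of littermates without naming the libraries of a pair, so p-values measure the spread between these libraries.

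The members, the lists and the scaling were chosen with earlier results of these data known. Genes named are all members, list genes with an adjusted p under 0.05, the 3 genes nearest to each called member and the nearest member to each, with *Zfp143* and *Ctcf*. 1 of these nearest genes is not reported here. Markers outside this rule (*Car1*, *Epor*, *Klf1*, *Ly6g*, *Il7r*, *Cd3g*, *Fcgr3*, *Mpo*, *Prtn3*, *S100a9*, *Ltf*, *Pf4*, *Cd79b*, *Cd34*, *Ptprc*) were named after their values were seen. So were the overlapping gene *Snapc3*, the paralog *Wdr5b*, *Hcfc1*, *Wdr82*, *Eya1*, *Meis1* and the *Hoxa* genes. The table holds 21 symbols turned into dates, and *Pax5* was not found in it. Alternatives were FPKM as deposited, scaling to own fragments, pseudocounts of 0.01 and 1, filters of none or of mean FPKM 1, voom, no variance trend, the replicate number as a block, and each library left out. The first 2 without the second *Znf143 f/f* library were added after seeing the data.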

Additional observations from a re-analysis of the deposited data

How the results depend on the processing

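*Men1*, *Kmt2c*, *Dot1l*, *Kmt2b* and *Kmt2a* stayed below 0 in all 17 alternatives, with log2 fold changes of -1.33 to -0.96, -0.82 to -0.57, -0.71 to -0.45, -0.64 to -0.28 and -0.47 to -0.25. The calls did not hold as widely: *Men1* and *Kmt2c* each lost theirs in 7 of 17. With the replicate number as a block, 191 genes and 0 of the 10 members were called (limma, adjusted p = 0.106 for *Men1* and 0.0999 for *Kmt2c*). The mice were 3 pairs of littermates, but which libraries form a pair is not stated, and deviations of same-numbered libraries correlated at -0.094, -0.088 and 0.035 across genes, so that the block may not match the pairs. With FPKM as deposited 0 members were called, with scaling to own fragments 1 (*Kmt2c*; 994 genes in all), and, leaving out the second *Znf143 f/f* library, 1 with FPKM as deposited (1441 genes in all) and 3 with own fragments, where 1904 genes were called. Leaving out 1 library gave 226 to 2280 genes and 0 to 3 members called. *Kmt2d* turned to 0.0038 with FPKM as deposited. *Psip1* turned to 0.0899 with FPKM as deposited, 0.0055 with own fragments, and 0.1053 and 0.0216 with these scalings when the second *Znf143 f/f* library was left out, and reached -0.0879 to 0.0352 when 1 library was left out (above 0 without the second library of either genotype, 0.0352 and 0.0321). *Rbbp5* turned to 0.1121 with FPKM as deposited (0.0188 without the second *Znf143 f/f* library), 0.0284 with own fragments and 0.0022 with voom, and ranged from -0.0508 to 0.0534 when 1 library was left out (0.0403 without the third *Znf143 f/f* and 0.0534 without the first *Znf143 -/-* library). The log2 ratio of *Kmt2b* to *Kmt2a* ranged from -0.3489 to 0.0491 (0.0491 and 0.0188 without the first and the third *Znf143 f/f* library). The ratios *Men1* to *Psip1*, *Kmt2c* to *Kmt2d* and *Dot1l* to *Kmt2a* kept their direction in all 8 alternatives run. The cause of these changes was not tested.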
